A study of Rattus norvegicus with 24 samples.

Results

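The frontal cortex of adult male Sprague-Dawley rats that had inhaled a low or a high concentration of tungsten particles was compared, dose against dose. The Low group (8 rats, libraries 57 to 64) was exposed to an aerosol of 5 mg/m3 and the High group (8 rats, libraries 65 to 72) to 80 mg/m3, which makes 16 of the 24 rats of the series. The 8 Control rats (libraries 49 to 56, 0 mg/m3) are given beside them. Messenger RNA was sequenced 24 h after exposure, 1 library per rat, and no genetic change or second agent is named for any group. The length of the inhalation is not stated in the labels. The tissue is labelled frontal cortex, although the extraction protocol speaks of cell lines of it.

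Gene abundance was estimated with StringTie, which builds transcripts from aligned reads. Its Coverage is the mean read depth per base of a gene. It was summed per gene, divided by the sum over the reference genes of the library and multiplied by 1000000, and is called scaled coverage here. Of the 32883 reference genes in every table, 7070 overlap another reference gene and 37 are mitochondrial, and 25789 are nuclear and overlap no other. Of the latter, 11823 averaged 1 or more across all 24 libraries and were tested.

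Neurons that fire switch on immediate early genes within minutes, through transcription factors that are already present and are activated by calcium and growth factor signals. Their products are mainly further transcription factors, the synaptic protein Arc, and phosphatases that shut the same signals off. In the cortex the level of these mRNAs follows recent activity and falls again within hours.

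Some libraries stood apart before any gene was compared. Libraries 57 to 62 of Low and library 56 of Control held scaled coverage of 5449 to 8102 and 6991 over the mitochondrial transfer RNA genes of the minus strand, against 84.9 to 155 in every other library. No High library has this trait, so results are also given without libraries 56 to 62, which leaves 2 Low rats, replicates 63 and 64. The Low tables list 0 loci assembled from the reads, while the High tables list 50235 to 64010, so the kind of table and the dose cannot be told apart. Dividing coverage by FPKM gave base totals of 3.34 to 6.42 gigabases in Low and 4.95 to 7.65 gigabases in High. At nearly equal summed reference coverage, Low replicate 63 had 3.71 gigabases and High replicate 65 had 4.95. Low replicate 59 and High replicate 72, also nearly equal in coverage, had 4.44 and 5.73. A difference in sequencing depth between the doses is therefore not read from these totals. Mitochondrial genes held 21.8% to 33.8% of the coverage in Low and 22.5% to 27.8% in High. The tables hold no read counts, so the counting error is unknown.

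Markers of cortical neurons were present in all 16 libraries. The 12 measured markers of excitatory cortical neurons summed to 883 to 1428 in Low and to 508 to 1405 in High. The 14 measured markers of striatal medium spiny neurons, a cell type of the neighbouring striatum, summed to 397 to 1022 in Low and to 354 to 1761 in High. No marker of either list was at 0 in all 16 libraries. High replicates 65, 67 and 66 had the highest striatal sums, at 1761, 1539.7 and 1265, and replicates 67 and 66 had the lowest excitatory sums of the group, at 508 and 803. Counts are therefore also given without libraries 65 to 67, a choice made after seeing the data. In tissue samples, fewer cells of a type and less RNA per cell cannot be told apart.

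Between the doses, 598 genes (5.06% of 11823) were higher in Low and 523 (4.42%) were lower, at a Benjamini-Hochberg adjusted p under 0.05 in limma, two-sided. All 8 Low values lay above all 8 High values for 34 genes (0.288%) and below them for 105 genes (0.888%). The Control mean lay between the means of both doses for 564 of the higher and 415 of the lower genes, and nearer to High than to Low for 487 and 499. These genes were chosen for a difference between Low and High, which by itself affects where Control falls. The share over all genes was not counted, so no pattern of dose is read from these counts.

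Single rats moved the count of higher genes by over 1.5 times. It was 270, 274 and 380 without Low replicate 62, 59 or 60, 352 and 382 without High replicate 67 or 65, and 994 and 1157 without Low replicate 57 or 61. The count of lower genes stayed between 453 and 549 when single rats were left out.

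The balance of the directions depended on the scaling. Higher genes made up 53.3% of the calls here, 25.7% with median-of-ratios scaling, 41.6% with the sum of the nuclear non-overlapping genes as the scale, 5.68% without scaling and 2.61% with upper quartile scaling. They made up 63.4% with the FPKM column and 81.6% with the TPM column. The median difference of all genes tested, Low minus High, moved with these choices from -0.12 to 0.15 on the log2 scale and was 0.095 here, so list medians are given relative to it. Without libraries 56 to 62, 16 genes (0.135%) were higher and 120 (1.01%) lower, of which 11 and 102 were also called with all rats. Without libraries 65 to 67, 206 genes (1.74%) were higher and 291 (2.46%) lower. Fewer rats enter both of these fits.

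Immediate early genes had the largest median difference of the functional lists, with all rats and without libraries 56 to 62. Of 26 genes on the list, all nuclear and overlapping no other gene, 24 were tested, of which 13 were higher in Low and 0 lower, beside 5.06% and 4.42% of all genes tested. At an unadjusted p under 0.05 in limma, 18 were higher and 0 lower, beside 20.04% and 6.82% of all genes, and the exact Wilcoxon rank-sum test called 7 higher and 0 lower, beside 3.6% and 2.27% of all genes. The median log2 difference was 0.74, or 0.64 above the median of all genes, and 23 of the 24 differences were positive. The other 2 genes, Atf3 and Bdnf, had mean scaled coverage of 0.962 and 0.934 and were not tested.

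The direction of the list held under every scaling and column named above, where 7 to 17 members were higher and 0 lower. With median-of-ratios scaling 11 members were higher (all genes, 2.17% higher and 6.27% lower), and with the nuclear scale 12 members were higher (all genes, 3.9% higher and 5.47% lower). Without scaling 7 members were higher (all genes, 0.279% higher and 4.63% lower), and with upper quartile scaling 10 members were higher (all genes, 0.524% higher and 19.6% lower). With the FPKM column 14 members were higher (all genes, 8.6% higher and 4.97% lower), and with the TPM column 17 members were higher (all genes, 18.1% higher and 4.09% lower). With libraries 56 to 62 as a covariate 6 members were higher (all genes, 0.211% higher and 0.863% lower). The share of members that were higher exceeded that of all genes in each of these fits. Leaving out each rat in turn gave 10 to 15 higher and 0 lower. Without libraries 56 to 62, Npas4, Arc, Egr2 and Junb were higher and 0 members lower, the relative median was 0.89, and 15 members were higher and 0 lower at an unadjusted p under 0.05. Without libraries 65 to 67, the same 4 genes and Egr4 were higher, and the relative median was 0.44.

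Promoters of genes from this list are shown because some immediate early genes are known to be controlled through 2 DNA elements. Whether either element had a part in the difference between the doses was not tested. The cAMP response element (CRE), with the letters TGACGTCA, binds the factor CREB, and the CArG box binds serum response factor. The CArG box was searched as CCWWWWWWGG, where W is A or T. Each pattern is its own reverse complement, so a match counts for both strands, and no promoter of the list holds both. The sequences are RefSeq's, on build GRCr8, from 250 bases before to 50 after the gene start, printed 5′ to 3′ with CRE and CArG matches in capitals.
Egr1 promoter (chr18:26736828-26737127, plus strand): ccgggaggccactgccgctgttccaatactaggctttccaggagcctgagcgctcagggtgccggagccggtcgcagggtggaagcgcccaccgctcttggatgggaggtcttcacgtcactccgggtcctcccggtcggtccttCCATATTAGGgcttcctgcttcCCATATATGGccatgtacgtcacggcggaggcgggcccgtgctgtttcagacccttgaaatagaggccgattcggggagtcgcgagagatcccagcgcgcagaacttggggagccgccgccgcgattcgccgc
Egr2 promoter (chr20:21054392-21054691, minus strand): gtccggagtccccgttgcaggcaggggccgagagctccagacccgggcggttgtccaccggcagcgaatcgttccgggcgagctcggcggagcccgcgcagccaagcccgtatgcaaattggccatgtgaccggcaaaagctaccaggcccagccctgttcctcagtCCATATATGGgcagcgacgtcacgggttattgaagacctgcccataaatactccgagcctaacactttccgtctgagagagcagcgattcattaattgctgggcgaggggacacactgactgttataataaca
Ier2 promoter (chr19:40399123-40399422, plus strand): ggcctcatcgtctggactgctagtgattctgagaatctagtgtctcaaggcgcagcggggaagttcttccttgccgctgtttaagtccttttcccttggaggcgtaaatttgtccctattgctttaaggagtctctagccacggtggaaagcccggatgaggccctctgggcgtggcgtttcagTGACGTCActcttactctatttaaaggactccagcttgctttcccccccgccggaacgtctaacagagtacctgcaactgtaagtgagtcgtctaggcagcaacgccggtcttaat
Dusp1 promoter (chr10:17184603-17184902, plus strand): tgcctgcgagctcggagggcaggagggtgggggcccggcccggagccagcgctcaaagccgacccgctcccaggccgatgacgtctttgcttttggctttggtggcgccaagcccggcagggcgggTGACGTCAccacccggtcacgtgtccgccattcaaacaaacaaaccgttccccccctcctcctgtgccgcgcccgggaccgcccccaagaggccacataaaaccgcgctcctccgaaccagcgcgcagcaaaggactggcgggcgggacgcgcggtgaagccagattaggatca
Npas4 promoter (chr1:211716053-211716352, minus strand): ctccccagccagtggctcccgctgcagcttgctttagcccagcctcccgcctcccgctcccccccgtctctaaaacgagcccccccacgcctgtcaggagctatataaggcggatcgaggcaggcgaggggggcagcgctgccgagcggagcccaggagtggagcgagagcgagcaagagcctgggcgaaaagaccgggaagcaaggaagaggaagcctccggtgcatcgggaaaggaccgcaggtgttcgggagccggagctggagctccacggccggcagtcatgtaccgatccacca
A promoter was matched for 18 of the 26 genes of the list, of which 4 hold a CRE and 3 a CArG box. Over 33469 promoters of the same length, 1.83% hold a CRE and 1.64% a CArG box. Among the 11 genes with a promoter that were higher in Low, Ier2, Dusp1 and Btg2 hold a CRE, Egr2 holds 1 CArG box and Egr1 holds 2. Among the 7 that were not called, Jund holds a CRE and Klf6 a CArG box. The windows of Npas4, Junb and Nr4a1 hold neither, which says only that these letters are not in these 300 bases.

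Npas4 (ENSRNOG00000020009, chromosome 1, 220261008 to 220265772 in the coordinates of the tables) encodes a transcription factor that is induced by calcium entry in neurons. Its scaled coverage was 16.2, 26.1 and 46.2 in Low (lowest, median and highest of 8) and 2.84, 10.1 and 13.5 in High. Every one of the 8 Low rats lay above every High rat, and the Control rats, from 8.93 to 24.3, overlapped both groups. The log2 difference was 1.66 (SE 0.29, limma adjusted p = 0.000288). It was 2.28 without libraries 56 to 62 (limma adjusted p = 0.00709) and 1.64 without libraries 65 to 67 (limma adjusted p = 0.00193).

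Arc (ENSRNOG00000043465, chromosome 7, 115907097 to 115910541) encodes a synaptic protein that drives removal of AMPA receptors from synapses. It was 87.9, 171 and 285 in Low and 21.8, 49.6 and 141 in High. The highest High value, of replicate 72, stood apart from the other 7, which reached 73.5, and 5 of the 8 Low rats lay above it. The log2 difference was 1.64 (SE 0.31, limma adjusted p = 0.000925), and 2.27 without libraries 56 to 62 (limma adjusted p = 0.0129).

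Among the zinc finger factors of the Egr family, Egr2 had the largest difference. It was 3.11, 15.6 and 21.3 in Low and 1.16, 4.56 and 10.9 in High, with 7 of the 8 Low rats above every High rat and Low replicate 57 within the High range. The log2 difference was 1.42 (SE 0.32, limma adjusted p = 0.00438), and 2.04 without libraries 56 to 62 (limma adjusted p = 0.0128). Egr1, which the cortex expresses at a high level at rest, was 134, 224 and 304 in Low and 49.4, 118 and 198 in High (log2 difference 0.95, SE 0.22, limma adjusted p = 0.00467). Here 6 of the 8 Low rats lay above every High rat. Egr4 differed by 0.70 (limma adjusted p = 0.00390). Egr3, with medians of 62.1 in Low and 45.9 in High, did not pass the threshold (limma adjusted p = 0.232). Egr1 and Egr4 did not pass without libraries 56 to 62 (limma adjusted p = 0.0723 and 0.180).

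Among the Fos and Jun genes, whose products pair to form the factor AP-1, Junb (ENSRNOG00000042838) had the smallest adjusted p. It was 76.2, 119 and 154 in Low and 31.5, 52.2 and 87.6 in High, with 6 of the 8 Low rats above every High rat. The log2 difference was 1.15 (SE 0.19, limma adjusted p = 0.000194), 1.44 without libraries 56 to 62 (limma adjusted p = 0.0108) and 1.10 without libraries 65 to 67 (limma adjusted p = 0.00274). Fos was 24.1, 56.5 and 71.8 in Low and 10.96, 27.0 and 41.5 in High (log2 difference 1.09, SE 0.25, limma adjusted p = 0.00551). The groups overlapped, 6 Low rats lay above every High rat, and Low replicate 57 held the lowest Low value. The Fos difference without libraries 56 to 62 was 1.38 and did not pass (limma adjusted p = 0.0903). Fosb, Jun, Jund and Fosl2 had differences of 0.57, 0.33, 0.17 and -0.18 and did not pass.

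Of the orphan nuclear receptors, Nr4a1 was 26.2, 51.0 and 72.0 in Low and 9.49, 23.8 and 46.8 in High (log2 difference 1.03, SE 0.26, limma adjusted p = 0.00945). The groups overlapped, and 5 Low rats lay above every High rat. Nr4a1 did not pass without libraries 56 to 62 or without libraries 65 to 67 (limma adjusted p = 0.0750 and 0.0950). Nr4a3 and Nr4a2 had differences of 0.73 and 0.28 and did not pass (limma adjusted p = 0.0784 and 0.534).

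Among genes that restrain the same signals, Dusp1 and Dusp6 encode phosphatases of MAP kinases. Dusp1 was 47.2, 90.3 and 111 in Low and 15.1, 31.1 and 89.4 in High (log2 difference 1.11, SE 0.31, limma adjusted p = 0.0181), with 4 Low rats above every High rat. Dusp6 differed by 0.74 (limma adjusted p = 0.00983), the antiproliferative gene Btg2 by 0.97 (limma adjusted p = 0.0282), and Ier2 and Ier5 by 0.74 and 0.66 (limma adjusted p = 0.0406 and 0.0414). Klf2, Klf4, Klf6 and Homer1 had differences of 0.76, 0.49, 0.048 and 0.37 and did not pass. Fos, Dusp6, Btg2, Ier2, Ier5 and the members that did not pass are named as the rest of this list, outside the rule for named genes.

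**Figure D1:**
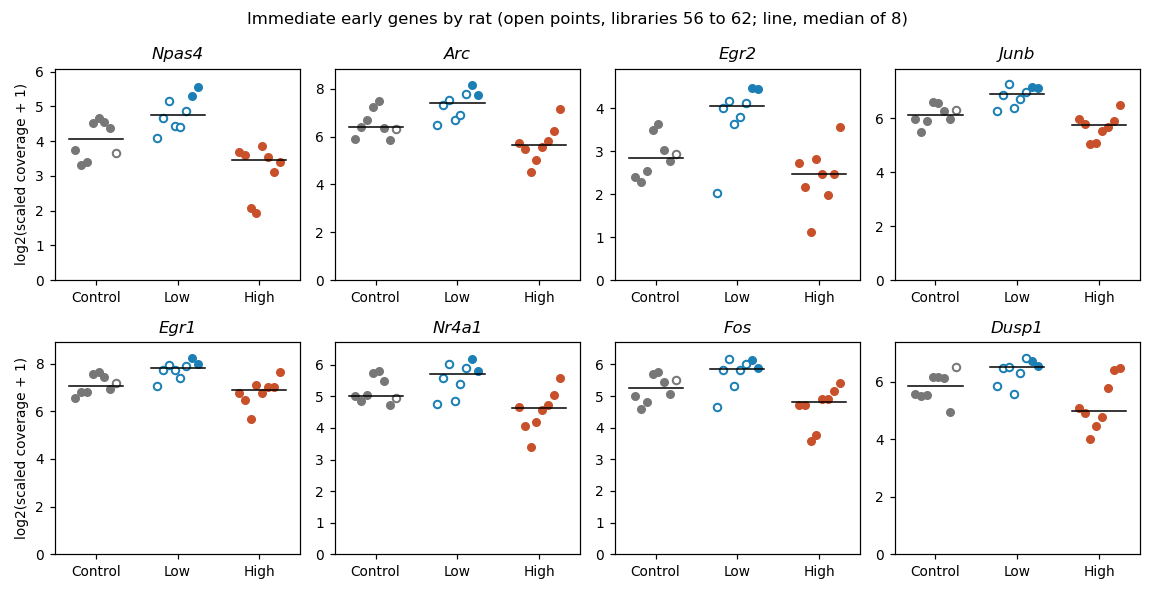
Scaled coverage of 8 immediate early genes, as log2(value + 1), in each of 8 Control, 8 Low and 8 High rats, with libraries 56 to 62 as open points and group medians as lines. The Npas4 values of Low all lie above those of High, while Low and High overlap in the other 7 genes.

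The plot of these genes by rat shows Control medians between those of the doses. The Control mean was below the Low mean for 21 of the 24 tested members and above the High mean for 23, against 8035 and 7594 of all 11823 genes. The median difference of the list was 0.39 for Low minus Control (0.065 for all genes) and -0.33 for High minus Control (-0.031 for all genes), and both use the same Control rats. Against Control, Junb (limma adjusted p = 0.0274) and Egr4 (limma adjusted p = 0.0298) were higher in Low, where 0.981% of all genes were. For High against Control, 0 members of the list and 0 of all 11823 genes passed.

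The mean log2 value of the 24 members was 4.58 to 5.61 in Low, 4.45 to 5.28 in Control and 3.71 to 5.09 in High. High replicate 67 had the lowest value and Low replicate 63 the highest. Low replicate 57, the lowest of its group, lay below High replicates 65, 70, 71 and 72, and was at 4.58, as replicate 65 was to 2 decimals. The marker sums given above were also extreme in High replicate 67, and their part in the result was not tested. The time of day of sampling is not stated in the labels.

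Other functions differed by less, and most of their calls in the higher direction rested on the scaling, while the number of members called lower in each list was the same without scaling as with it. Without scaling, 0 members of the 15 other lists described here were higher in Low by limma (6 at an unadjusted p under 0.05). With upper quartile scaling the clock list had 2, the DNA damage list 1 and the glucocorticoid list 1 higher (all genes, 0.524%). Without libraries 56 to 62, Gadd45b of the DNA damage list was the single member of these lists that was higher. Without libraries 65 to 67 (all genes, 1.74% higher), the cholesterol list had 4 members higher and the DNA damage list 2. The clock, glucocorticoid, metal handling, cytokine and antioxidant lists had 1 each. The condensin and cohesin, aminoacyl-tRNA synthetase, V-ATPase, glutamate receptor, potassium channel, respiratory chain, ribosomal and molybdenum lists had 0.

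Of the clock genes, several of which are also induced by activity, 3 of 20 tested were higher in Low and 1 lower, against 5.06% and 4.42% of all genes (12 higher and 1 lower at an unadjusted p under 0.05 against 20.04% and 6.82% of all genes, 4 and 1 by the exact Wilcoxon rank-sum test against 3.6% and 2.27%), with a median 0.18 above that of all genes. Nr1d2, a repressor of the clock, was 51.8, 60.2 and 74.0 in Low and 32.9, 42.3 and 50.2 in High, without overlap (log2 difference 0.53, SE 0.11, limma adjusted p = 0.00237). Ciart, which encodes another repressor, was 12.6, 17.3 and 22.2 in Low and 5.19, 8.39 and 14.8 in High (log2 difference 0.89, SE 0.22, limma adjusted p = 0.00927), with 6 Low rats above every High rat. Per2 differed by 0.58 (limma adjusted p = 0.0468). Clock itself went the other way, at 1.54, 9.69 and 12.2 in Low and 14.2, 16.5 and 19.2 in High, without overlap (log2 difference -1.03, SE 0.24, limma adjusted p = 0.00568). Clock also passed without libraries 56 to 62 (limma adjusted p = 0.0432), but not with them as a covariate (limma adjusted p = 0.160).

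Of the genes of cholesterol synthesis, 8 of 18 tested were higher in Low and 0 lower, against 5.06% and 4.42% of all genes (13 higher and 0 lower at an unadjusted p under 0.05 against 20.04% and 6.82% of all genes, 9 and 0 by the exact Wilcoxon rank-sum test against 3.6% and 2.27%). Hmgcs1, an early enzyme of the pathway, was 243, 254 and 283 in Low and 175, 214 and 223 in High, without overlap (log2 difference 0.31, SE 0.071, limma adjusted p = 0.00466). Insig1, which retains the sterol sensor in the endoplasmic reticulum, was 72.3, 87.1 and 96.3 in Low and 59.5, 69.2 and 77.6 in High (log2 difference 0.31, SE 0.071, limma adjusted p = 0.00445), with 7 Low rats above every High rat. Sqle and Cyp51 differed by 0.28 and 0.25 (limma adjusted p = 0.00746 and 0.00890). Sc5d and Msmo1 differed by 0.25 and 0.18. The list median lay 0.12 above that of all genes, but was -0.022 itself with upper quartile scaling, where 1 member was lower, and -0.00022 without scaling. Control medians of Hmgcs1 and Insig1 were 224 and 69.5.

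Condensin and cohesin complexes fold chromosomes and hold sister chromatids. Of 35 on the list, 5 of 17 tested were higher in Low and 0 lower, against 5.06% and 4.42% of all genes (10 higher and 0 lower at an unadjusted p under 0.05 against 20.04% and 6.82% of all genes, 5 and 0 by the exact Wilcoxon rank-sum test against 3.6% and 2.27%). Smc2 of condensin was 9.59, 11.8 and 12.9 in Low and 8.01, 9.24 and 11.1 in High (log2 difference 0.31, SE 0.073, limma adjusted p = 0.00593). Smc1a of cohesin differed by 0.28 (limma adjusted p = 0.0142), Smc6 by 0.26 (limma adjusted p = 0.0254) and the cohesin loader Nipbl by 0.32 (limma adjusted p = 0.0300). The groups overlapped for each of them. The median lay 0.14 above that of all genes, and 0.16 without libraries 56 to 62.

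In the DNA damage list, 5 of 24 tested were higher in Low and 1 lower, against 5.06% and 4.42% of all genes (9 higher and 1 lower at an unadjusted p under 0.05 against 20.04% and 6.82% of all genes, 2 and 1 by the exact Wilcoxon rank-sum test against 3.6% and 2.27%), with a median 0.081 above that of all genes. Gadd45g, a stress sensor that is also induced by activity, was 19.1, 26.0 and 27.9 in Low and 11.8, 15.7 and 18.6 in High, without overlap (log2 difference 0.64, SE 0.14, limma adjusted p = 0.00315). Ccng2 and Mdm2 differed by 0.34 and 0.27 (limma adjusted p = 0.0155 and 0.0265). Gadd45b, named after its values were seen, differed by 0.39, and by 0.68 without libraries 56 to 62 (limma adjusted p = 0.0474).

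Of the aminoacyl-tRNA synthetases, which load amino acids on transfer RNAs, 4 of 15 tested were higher in Low and 0 lower, against 5.06% and 4.42% of all genes (10 higher and 0 lower at an unadjusted p under 0.05 against 20.04% and 6.82% of all genes, 1 and 0 by the exact Wilcoxon rank-sum test against 3.6% and 2.27%). The members that passed, Rars1, Gars, Hars1 and Nars1, differed by 0.19 to 0.28, though Hars1 and Nars1 were below 0 without scaling and Gars, Hars1 and Nars1 with upper quartile scaling. Of the subunits of the V-ATPase proton pump, 3 of 12 tested were higher in Low and 0 lower, against 5.06% and 4.42% of all genes (6 higher and 0 lower at an unadjusted p under 0.05 against 20.04% and 6.82% of all genes, 0 and 0 by the exact Wilcoxon rank-sum test against 3.6% and 2.27%). The members that passed, Atp6ap2, Atp6ap1 and Atp6v1a, differed by 0.18 to 0.29, though Atp6ap1 was below 0 with both of these scalings. Of the glucocorticoid targets, 3 of 16 tested were higher in Low and 0 lower, against 5.06% and 4.42% of all genes (5 higher and 0 lower at an unadjusted p under 0.05 against 20.04% and 6.82% of all genes, 1 and 0 by the exact Wilcoxon rank-sum test against 3.6% and 2.27%). They were Arl4d (0.54), Klf9 (0.26) and Dusp1, which is also on the immediate early list. With median-of-ratios scaling Arl4d and Dusp1 were the 2 that passed, and Klf9 did not.

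Of the glutamate receptor genes, 2 of 11 tested were higher in Low and 0 lower, against 5.06% and 4.42% of all genes (4 higher and 0 lower at an unadjusted p under 0.05 against 20.04% and 6.82% of all genes, 0 and 0 by the exact Wilcoxon rank-sum test against 3.6% and 2.27%). Grin2a, the NMDA receptor subunit that replaces Grin2b as the cortex matures, was 3.95, 24.8 and 40.9 in Low and 3.67, 7.64 and 21.9 in High (log2 difference 1.22, SE 0.39, limma adjusted p = 0.0454). Low replicate 57, at 3.95, lay near the lowest High value. Without libraries 65 to 67 the Grin2a difference was 0.86 and did not pass (limma adjusted p = 0.252). Grm3, a metabotropic receptor, differed by 0.48 (limma adjusted p = 0.0179). Without libraries 65 to 67, 0 members of this list were higher, so Grm3 did not pass there either.

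Of the cytokine and NF-kB genes, 1 of 20 tested were higher in Low and 0 lower, against 5.06% and 4.42% of all genes (4 higher and 1 lower at an unadjusted p under 0.05 against 20.04% and 6.82% of all genes, 0 and 0 by the exact Wilcoxon rank-sum test against 3.6% and 2.27%). The share higher in Low was near that of all genes. The member that passed, Ptgs2, encodes an inducible prostaglandin synthase that cortical neurons also switch on with activity, and was 13.3, 22.8 and 32.0 in Low and 5.24, 14.0 and 22.1 in High (log2 difference 0.74, SE 0.22, limma adjusted p = 0.0313).

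Tungsten is a metal that is chemically close to molybdenum, and of the metal handling genes 2 of 19 tested were higher in Low and 1 lower, against 5.06% and 4.42% of all genes. The transferrin receptor Tfrc, which takes up iron, was 49.1, 63.2 and 69.4 in Low and 38.9, 46.4 and 52.4 in High (log2 difference 0.39, SE 0.084, limma adjusted p = 0.00315), with 7 of the 8 Low rats above every High rat. The zinc transporter Slc30a4 differed by 0.35 (limma adjusted p = 0.0407). The iron exporter Slc40a1 is listed at 0 in all 8 Low tables and at 0.863, 2.04 and 2.60 in High, with 2.002 to 3.78 in Control (limma adjusted p = 2.90e-10). These values lie near the filter at a mean of 1, and a StringTie value of 0 can be a failed estimate. Loss of this mRNA at the low dose is therefore not read from the call.

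Of 26 tested Nrf2 targets and antioxidant enzymes, 0 passed in limma (4 higher and 0 lower at an unadjusted p under 0.05 against 20.04% and 6.82% of all genes, 0 and 0 by the exact Wilcoxon rank-sum test against 3.6% and 2.27%). With upper quartile scaling 6 of the 26 were lower (all genes, 19.6%), and with the TPM column 2 were higher (all genes, 18.1%). Superoxide dismutase Sod1 had medians of 258 in Low and 264 in High, and the peroxiredoxin Prdx2 315 and 305. Of 7 tested genes for the molybdenum cofactor and its enzymes, 0 passed in limma (0 higher and 1 lower at an unadjusted p under 0.05 against 20.04% and 6.82% of all genes, 0 and 0 by the exact Wilcoxon rank-sum test against 3.6% and 2.27%). Of these 7, 1 was lower with median-of-ratios scaling (all genes, 6.27%) and 2 with upper quartile scaling (all genes, 19.6%). With the FPKM and TPM columns 2 each were higher (all genes, 8.6% and 18.1%). Gphn, which encodes gephyrin, had a difference of 0.12 (SE 0.070, limma adjusted p = 0.259) and Mocs2 one of 0.012 (SE 0.067, limma adjusted p = 0.914). The Gphn difference was 0.24 with the FPKM and 0.32 with the TPM column. A p above the threshold does not show that the doses act alike on these genes.

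Of the nuclear genes of the respiratory chain, 1 of 56 tested were higher in Low and 2 lower, against 5.06% and 4.42% of all genes (4 higher and 4 lower at an unadjusted p under 0.05 against 20.04% and 6.82% of all genes, 0 and 1 by the exact Wilcoxon rank-sum test against 3.6% and 2.27%). Of the cytosolic ribosomal protein genes, 0 of 45 tested were higher in Low and 2 lower, against 5.06% and 4.42% of all genes (0 higher and 3 lower at an unadjusted p under 0.05 against 20.04% and 6.82% of all genes, 0 and 1 by the exact Wilcoxon rank-sum test against 3.6% and 2.27%). The shares that passed were near or below those of all genes. With upper quartile scaling 13 and 11 members were lower (all genes, 19.6%). With the FPKM and TPM columns 4 and 5 ribosomal members were higher (all genes, 8.6% and 18.1%). Relative to all genes, the medians of both lists were -0.078 and -0.076. Ndufs1 of complex I differed by 0.22, though by less than 0 with upper quartile scaling, while Uqcr10 of complex III and Cox6b1 of complex IV differed by -0.25 and -0.76. Without libraries 56 to 62 these were -0.12 and -0.017 and did not pass (limma adjusted p = 0.658 and 0.969), and Cox6b1 was 229 and 266 in Low replicates 63 and 64, within the High range of 213 to 306. Cox6b1 names 2 genes and its value (ENSRNOG00000034161) may share reads with the other. Rps29 differed by -1.41, and by 0.21 without libraries 56 to 62.

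**Figure D2:**
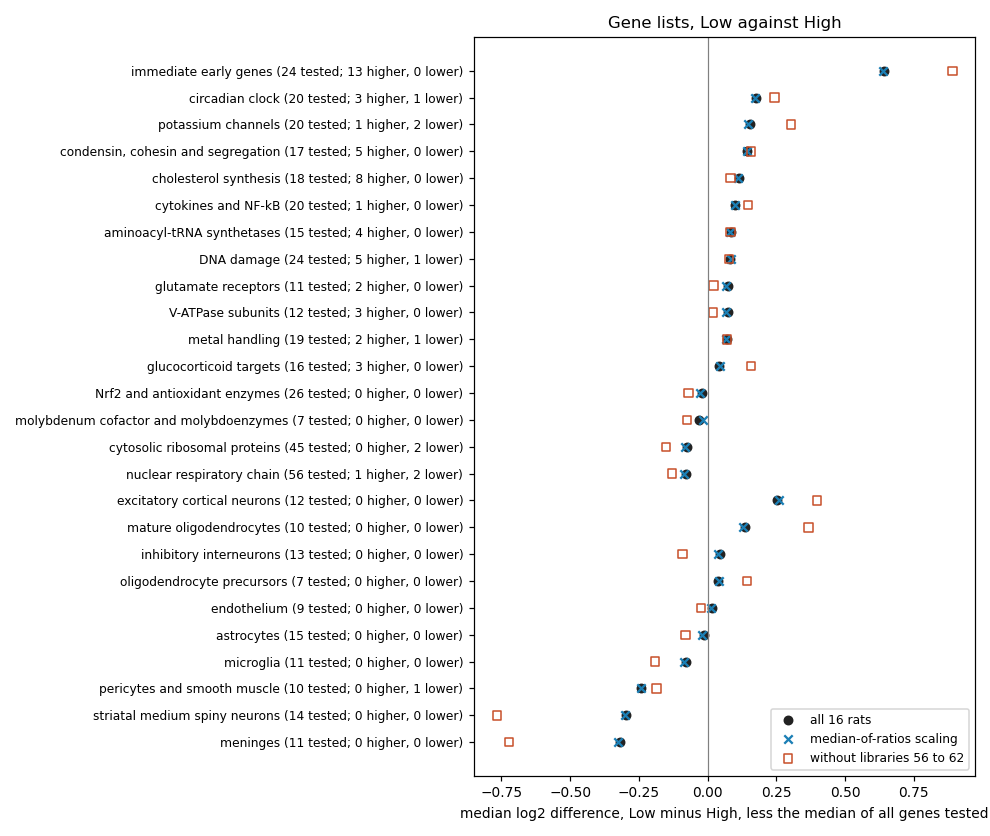
Median log2 difference, Low minus High, of 16 functional lists and 10 cell type lists, less the median of all genes tested, with all 16 rats (dots), with median-of-ratios scaling (crosses) and without libraries 56 to 62 (squares). Immediate early genes lie at 0.64 and 0.89, apart from the other functional lists, and the striatal and meningeal markers lie lowest of the lists drawn, at -0.30 and -0.32 with all rats.

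The plot of list medians also shows cell type markers, of which 0 were higher and 1 lower, a member of the pericyte and smooth muscle list. Excitatory neuron markers lay 0.25 above the median of all genes with all rats and 0.40 above it without libraries 56 to 62. Striatal markers lay at -0.30 and -0.77, and meningeal markers at -0.32 and -0.72, relative to all genes. The 4 tested blood markers, which are not drawn, lay at -0.29 and -1.08, and 0 of them passed in either fit. The 11 measured meningeal markers summed to 1344 to 3366 in Low and to 1148 to 3607 in High.

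The genes lower in Low than in High were shorter. The length from first to last base had a median of 1.499 kb among the lower genes, 22.0 kb among the higher genes and 16.7 kb among all genes tested. Of 248 tested genes under 0.2 kb, 139 (56.0%) were lower and 13 (5.24%) higher. Of 2460 genes over 50 kb, 28 (1.14%) were lower and 144 (5.85%) higher. Without libraries 56 to 62, 7 of the genes under 0.2 kb (2.82%) were lower and 0 higher. Low replicates 63 and 64 both reached at least the lowest High value for 100 of the 139 lower genes under 0.2 kb, and 53 of these 139 are listed at 0 in all of libraries 57 to 62.

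**Figure D3:**
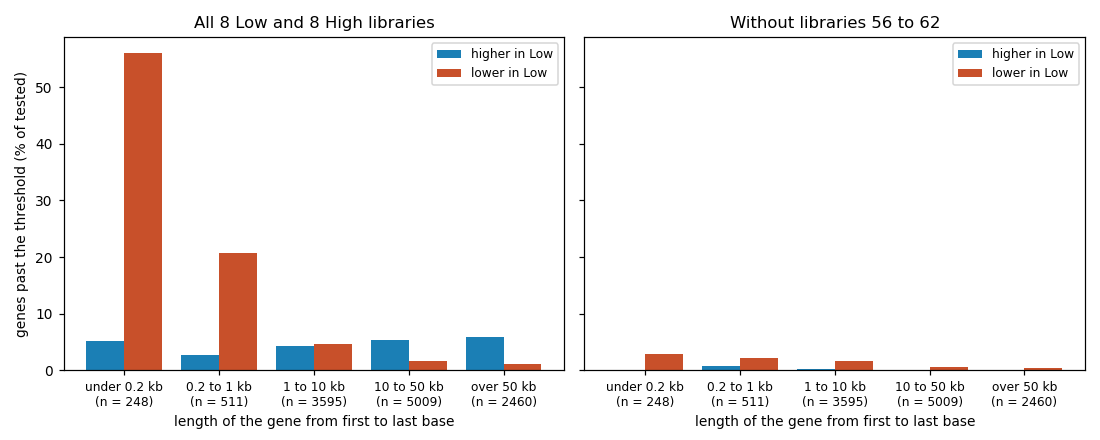
Share of tested genes past the limma threshold by gene length, higher or lower in Low, with all rats and without libraries 56 to 62. Among genes under 0.2 kb, 56.0% are lower with all rats and 2.82% without these libraries.

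Many of the short genes by name encode small RNAs. Small nucleolar RNAs of the C/D class (SNORD genes) guide methylation of ribosomal RNA, and of 23 tested, 17 were lower and 0 higher by limma, against 4.42% and 5.06% of all genes (2 lower by the exact Wilcoxon rank-sum test, against 2.27%), with a median log2 difference of -1.89. Without libraries 56 to 62, 0 were lower in limma (1 higher and 0 lower at an unadjusted p under 0.05) and the median was 0.022. SNORD29 (ENSRNOG00000058132) is listed at 0 in all of libraries 57 to 62 and in Control replicate 56, at 21.3 and 26.3 in Low replicates 63 and 64, and at 23.95, 34.2 and 50.9 in High. SNORD24 (ENSRNOG00000060649) reached at most 2.01 in libraries 57 to 62, with 31.7 and 35.8 in Low replicates 63 and 64 and 15.1, 33.8 and 43.2 in High.

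Genes of the spliceosomal RNA U6 went both ways. Of 7 tested U6 genes, 4 were lower and 2 higher by limma, against 4.42% and 5.06% of all genes, with a median of -1.14. The exact Wilcoxon rank-sum test called 2 lower and 0 higher, against 2.27% and 3.6%. Without libraries 56 to 62, limma called 0 lower and 0 higher, against 1.01% and 0.135%, and the median was -0.12. The U2 gene and the U6 gene described here were both higher. U2 (ENSRNOG00000054047) had a median of 172 in Low and 0.104 in High, but 0.340 and 0 in Low replicates 63 and 64 and 168 in Control replicate 56. U6 (ENSRNOG00000054364) had a median of 7.66 in Low and is listed at 0 in every High table and in Low replicates 63 and 64. The tables name 86 genes U2, 919 U6, 3 SNORD29 and 4 SNORD24, so reads may be split between copies.

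Of 41 tested miRNA genes, 26 were lower and 4 higher by limma, against 4.42% and 5.06% of all genes. The exact Wilcoxon rank-sum test called 8 lower and 0 higher, against 2.27% and 3.6% of all genes. Without libraries 56 to 62, limma called 1 lower and 0 higher, against 1.01% and 0.135%. The coverage is that of the hairpin locus in messenger RNA libraries, not of the mature miRNA. Mature sequences were found for 24 of the 26 in RefSeq's annotation of build GRCr8, and are shown with the seed (bases 2 to 8) in capitals. Those printed were chosen after their values were seen, for their level in High and, for both let-7 miRNAs, for their shared seed.
rno-miR-770-5p: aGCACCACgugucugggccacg
rno-miR-770-3p: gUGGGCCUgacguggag
rno-miR-568: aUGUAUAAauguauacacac
rno-miR-22-5p: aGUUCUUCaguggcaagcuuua
rno-miR-22-3p: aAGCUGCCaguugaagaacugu
rno-miR-138-5p: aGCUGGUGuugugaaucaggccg
rno-let-7b-5p: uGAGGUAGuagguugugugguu
rno-let-7c-5p: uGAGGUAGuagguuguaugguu
The Mir770 locus was 362, 494 and 544 in High, 502 and 512 in Low replicates 63 and 64, and at most 2.27 in libraries 57 to 62. It was 1.90 in Control replicate 56 and 298 to 525 in the other Control rats. The low values were those of the libraries that stood apart. Mir568 was 29.6, 40.8 and 69.4 in High, 41.4 and 47.3 in Low replicates 63 and 64, and at most 0.903 in libraries 57 to 62. Mir138-2 is listed at 0 in all of libraries 57 to 62, with 6.85, 17.7 and 39.6 in High and 18.0 and 21.1 in replicates 63 and 64.

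Mir22 was low in all 8 Low rats. It is listed at 0 in libraries 57 to 62 and was 9.12 and 10.7 in replicates 63 and 64, against 18.8, 34.4 and 55.6 in High and 16.9 in Control replicate 56. It was called without libraries 56 to 62 (log2 difference -1.72, limma adjusted p = 0.00158). Mirlet7b and Mirlet7c2, whose miRNAs share the seed GAGGUAG, had High medians of 3.72 and 2.28.

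Many lower genes were at or near 0 in most Low rats. In 6 or more Low tables and in no High table, 124 of the 11823 tested genes are listed at 0, of which 113 were called lower and 22 are at 0 in all 8 Low tables, while the reverse holds for 0 genes. All 8 Control tables are above 0 for 55 of them. The filter on the mean of all 24 libraries more readily keeps genes at 0 in Low where Control is above 0. The imbalance of 124 against 0 is therefore partly set by the filter. Of the 124, 75 are at 0 in all of libraries 57 to 62 and above 0 in both Low replicates 63 and 64, 66 are under 0.2 kb, and 39 are SNORD, SNORA, miRNA or U6 genes by name. In 41 of them, replicates 63 and 64 are both at 0 as well. A StringTie value of 0 can be a failed estimate, so no fold is given where a whole group is at 0.

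Sec14l4 (ENSRNOG00000004555, chromosome 14, 84274550 to 84319449), of the Sec14 family of lipid-binding proteins, was 0.0281, 0.0688 and 99.0 in Low and 99.2, 122 and 145 in High (log2 difference -6.04, SE 0.66, limma adjusted p = 3.57e-07). The highest Low value, of replicate 59, lay just below the lowest High value, and the other 7 Low rats reached at most 0.130. Nhp2, a protein of the H/ACA small nucleolar particle and of telomerase, is listed at 0 in 6 Low tables and was 34.5 and 25.4 in replicates 57 and 62, while High was 19.0, 21.6 and 27.9 (log2 difference -3.30, SE 0.64, limma adjusted p = 0.00126). Rsl1d1l1 is listed at 0 in 6 Low tables and was 17.7 and 18.8 in replicates 57 and 64, with High at 17.1, 18.9 and 19.8 (log2 difference -3.23, SE 0.55, limma adjusted p = 0.000261). In these 3 genes 1 or 2 Low rats sat close to or above the High values and the others at or near 0, with no values in between.

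Nol8, Rps4x and Klhdc4 were lower in every Low rat than in any High rat. Nol8, a nucleolar protein gene (ENSRNOG00000046968, one of 2 of that name), was 0.395, 0.666 and 1.08 in Low and 3.40, 4.56 and 5.22 in High (log2 difference -1.69, SE 0.10, limma adjusted p = 9.82e-13). Rps4x, of the small ribosomal subunit (ENSRNOG00000029574, one of 2 of that name), was 15.3, 17.1 and 21.1 in Low and 25.5, 31.1 and 34.9 in High, without overlap (log2 difference -0.79, SE 0.076, limma adjusted p = 1.63e-08). Control medians, 5.19 and 31.6, were near those of High. Klhdc4 differed by -1.85, and Dmrtc1a and the mucin gene Muc6 by -1.72 and -2.12, with 2 and 1 of the 8 Low rats within the High range. Knop1 (ENSRNOG00000048270, one of 2 of that name) and Lefty2 are listed at 0 in all 8 Low tables, against 5.11 to 8.64 and 1.27 to 2.24 in High (limma adjusted p = 1.39e-18 and 1.93e-11). With every Low value at 0, both passed the filter through High and Control alone, and Low had no spread. A value of 0 can be a failed estimate, so loss of these mRNAs at the low dose is not read from the calls.

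Cox14, an assembly factor of cytochrome c oxidase, was 24.2, 31.4 and 93.1 in Low, with both highest values in replicates 63 and 64, and 151, 163 and 186 in High, without overlap (log2 difference -2.09, SE 0.33, limma adjusted p = 9.28e-05). Control replicate 56, at 27.2, was the lowest of its group. The difference without libraries 56 to 62 was -0.98 (limma adjusted p = 5.89e-06).

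Of the potassium channel genes, 1 of 20 tested were higher in Low and 2 lower, against 5.06% and 4.42% of all genes. Kcnd3, which encodes a channel of the A-type current, was 2.02, 3.54 and 20.5 in Low and 14.7, 21.04 and 25.7 in High (log2 difference -1.83, SE 0.32, limma adjusted p = 0.000437). Low replicates 63 and 64, at 19.1 and 20.5, lay within the High range, Control replicate 56 was at 25.4, and without libraries 56 to 62 the difference was -0.054 (limma adjusted p = 0.923). Kcnn2, a calcium-activated channel, was 5.27, 8.51 and 10.2 in Low and 10.8, 14.4 and 17.1 in High, without overlap (log2 difference -0.72, SE 0.15, limma adjusted p = 0.00252), though its difference was above 0 with the FPKM and TPM columns. Kcnn1 differed by 0.28 (limma adjusted p = 0.0170). Without libraries 56 to 62, and with them as a covariate, 0 members of this list were higher and 0 lower, so Kcnn2 and Kcnn1 did not pass.

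**Figure D4:**
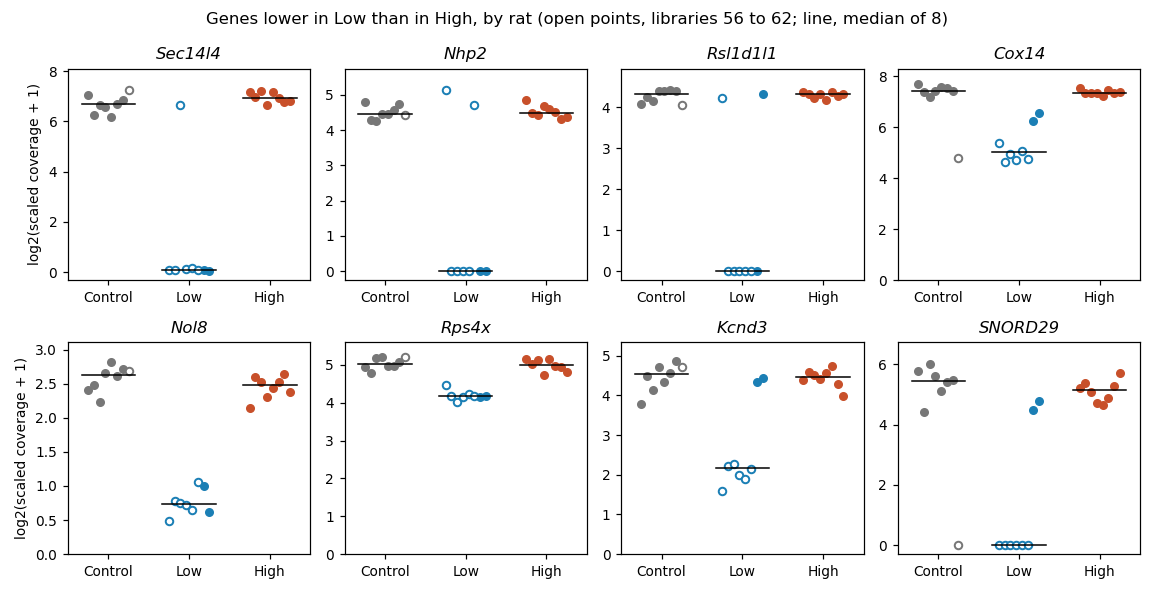
Scaled coverage of 8 genes lower in Low than in High, as log2(value + 1), in each rat, with libraries 56 to 62 as open points and group medians as lines. Sec14l4, Nhp2 and Rsl1d1l1 are near 0 in most Low rats and close to or above the High values in 1 or 2, Nol8 and Rps4x are low in all 8, and Kcnd3 and SNORD29 are lowest in libraries 57 to 62.

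Few higher genes passed in all of the settings named next. When a gene had to pass in the same direction with all rats, with median-of-ratios scaling, without scaling, with the nuclear scale and with a covariate for libraries 56 to 62, 7 genes were higher and 97 lower. Of the 7, 6 have a gene symbol, namely Npas4, Arc, Egr2, Junb, Nr4a1 and Egr1, all of the immediate early list. The fits without libraries 56 to 62 and without libraries 65 to 67 were not among these settings. Nr4a1 and Egr1 passed in neither of them (Egr1, limma adjusted p = 0.0723 and 0.0582), while Npas4, Arc, Egr2 and Junb passed in both. Of the 97, 40 have a gene symbol and 44 are among those listed at 0 in most Low tables, and the Control mean of all 97 lay nearer to High than to Low. Control and High tables list assembled loci and Low tables do not, so the low dose and the kind of table cannot be told apart here. The share over all genes was not counted.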

How the data were processed

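Messenger RNA of the frontal cortex of 24 rats was sequenced, 1 library per rat (TruSeq Stranded mRNA per the labels). The authors trimmed reads with Trimmomatic, aligned them with TopHat2 and deposited 1 StringTie gene table per rat, with quality checked by FastQC and versions not given in the sources used here. The deposited Coverage column is a signal, the mean read depth per base. The FPKM column, as deposited, is scaled by StringTie for length and depth. The column headed TPM was treated as a score, since the deposited values sum to 1000000 in the Low tables but to 1.70 to 1.98 times that in the Control and High tables, which also list assembled loci. The labels name mRatBN7.2, but sequence names and chromosome 1 positions up to 282724300 are those of an earlier assembly, so positions are those of the tables with the build uncertain.

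Coverage of reference genes was summed per gene, scaled to 1000000 per library and fitted as log2(value + 1) with limma 3.58.1 (trend and robust moderation, R 4.3.3) where the mean of all 24 libraries reached 1. Log2 differences on this scale understate the change of low genes. Low, High and Control entered a single fit of 15644 genes, and p-values, two-sided, were Benjamini-Hochberg adjusted over all of them at a threshold of 0.05. Calls were counted among 11823 nuclear genes that overlap no other. The exact Wilcoxon rank-sum test on Low and High was adjusted in the same way. Other steps used Python 3.11.15 with numpy 2.4.6 and pandas 2.3.3, and plots matplotlib 3.10.9. Both tests were tested on simulated data.

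Groups and replicate numbers, which are library numbers, come from the labels. Members and lists were chosen with earlier results of these data known, so no list was tested. Named genes were the 10 with the largest increase and decrease among those also called with median-of-ratios scaling, without scaling, with the nuclear scale and with a covariate for libraries 56 to 62, then the top 5 of each by limma alone, and up to 4 members of each list by smallest adjusted p (where none passed, 2 by coverage). Motifs were searched without mismatches, with A or T allowed at the W positions of the CArG box. Alternatives were another pseudocount, filter, scaling, column, test or set of libraries, with 5 sets or combinations added after seeing the data. Some list members are not reported here.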

Additional observations from a re-analysis of the deposited data

Results flagged for a closer look

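In sets of 8 values of 1 group (library measures, named genes and list means), a value was singled out where its gap to the nearest other value exceeded Dixon's 95% critical value as a share of the range. Chance gives this in about 1 in 20 sets, or 8.6 of the 172 sets examined, and 15 were found.

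Low replicate 57 accounted for 6 of them. Its mean log2 value was 3.54 for the condensin, cohesin and segregation list (3.76 to 3.96 in the other Low rats), 3.89 for the glutamate receptors (4.60 to 4.98), 7.95 for the nuclear respiratory chain (7.40 to 7.64) and 7.76 for the cytosolic ribosomal proteins (7.33 to 7.50). Nipbl was 12.6 in this rat (16.9 to 20.7 in the others) and Rps4x 21.1 (15.3 to 17.7), both as scaled coverage.

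Low replicate 60 had a base total, from coverage and FPKM, of 6.42 gigabases (3.34 to 4.44 in the other Low rats). Its summed reference coverage was 3.07, in units of 1000000 (1.64 to 2.05). In other Low rats, Sec14l4 was 99.0 in replicate 59 (0.0281 to 0.130 in the others), Muc6 was 12.7 in replicate 64 (0.836 to 2.55) and Ccng2 was 40.7 in replicate 62 (31.0 to 35.5).

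In High, Arc was 141 in replicate 72 (21.8 to 73.5 in the others) and Grin2a was 21.9 in replicate 70 (3.67 to 11.7). The U6 gene ENSRNOG00000058615 was 1.55 in replicate 71 (0 to 0.562 in the others), and mitochondrial genes held 22.5% of the coverage in replicate 70 (25.4% to 27.8% in the others).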

How the results depend on the processing

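The count of 598 genes higher in Low became 256 with median-of-ratios scaling, 33 without scaling, 62 with upper quartile scaling, 1019 with the FPKM column and 2131 with the TPM column. It was 25 with libraries 56 to 62 as a covariate, 16 without them, and 33 and 23 when these were combined with median-of-ratios scaling. It was 376 with libraries 57 to 62 alone as Low, 206 without libraries 65 to 67, and 270 to 1157 when single rats were left out. The count of 523 genes lower in Low became 2314 with upper quartile scaling, 300 at a minimum mean of 5, 268 by the exact Wilcoxon rank-sum test, 291 without libraries 65 to 67, 102 with libraries 56 to 62 as a covariate, 120 without them, and 159 and 171 with median-of-ratios scaling added. Only 15 tested genes had no assembled locus on their strand in any table, of which 0 were higher and 14 lower by limma (14 at an unadjusted p under 0.05). The combined settings, libraries 57 to 62 alone and the fit without 65 to 67 were added after seeing the data, and fits without libraries have fewer rats. Otherwise the cause of these shifts was not tested.

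Among named genes, 21 values changed sign, 502 kept their sign but did not pass and 2 passed only under the alternative. With libraries 56 to 62 as a covariate, without them, and each with median-of-ratios scaling, the log2 difference of Fam166a was -0.51, -0.65, -0.53 and -0.67, and that of SNORD24 was 0.20, 0.13, 0.12 and 0.041. Without these libraries, Rps29 was 0.21, or 0.13 with median-of-ratios scaling, and U2 was -0.00162 with that scaling. Without scaling, Hars1, Nars1 and Atp6ap1 were -0.022, -0.019 and -0.033. With upper quartile scaling, Hars1, Nars1, Atp6ap1, Ndufs1 and Gars were -0.044, -0.041, -0.056, -0.021 and -0.00774. Kcnn2 was 0.017 with the FPKM and 0.095 with the TPM column. The direction of the immediate early list held under every setting in which its members were tested.

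No paired analysis was possible because the replicate numbers are library numbers that the groups do not share. Depth per library can be gauged only from coverage and its ratio to FPKM, so no counting error is given. At nearly equal summed coverage, that ratio gave smaller base totals in Low tables than in High tables, as shown above. The cause was not tested. Small RNA genes are outside what a messenger RNA library is made to measure.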
